A study of Mus musculus with 40 samples.

Results

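The 8 Gimap genes of the mouse (Gimap1, Gimap3, Gimap4, Gimap5, Gimap6, Gimap7, Gimap8 and Gimap9) were followed through 4 stages of B cell development in bone marrow, with and without a mutation of a zinc transporter. They were found as the rows of the deposited count table whose Ensembl identifiers map to these symbols, which gave 8 of 21958 genes, and the table holds no other row whose symbol starts with Gimap. The genes were selected on their levels over these fractions and genotypes, which earlier results of these data had shown, so their levels and differences are given as a description and without p-values. RNA was counted in 40 libraries from 10 chimeric mice. All hosts were lethally irradiated CD45.1 mice that had received bone marrow 8 weeks before, from wild-type (WT) donors in 5 mice and from CRISPR/Cas9-made P198A/P198A donors in the other 5. The allele exchanges 1 amino acid of ZIP7, the zinc transporter that Slc39a7 encodes. It leaves the gene in place, so the amount of that transcript is no test of the labels. Each mouse gave 1 library of 100 donor cells (CD45.1- CD45.2+, so that surviving host cells were gated out) for each of FrB (pro-B cells, B220+ CD43+ CD24+ BP1-), FrC, FrD (late pre-B cells, B220+ CD43- IgM- IgD-) and FrE (immature B cells, B220+ CD43- IgM+ IgD-). For FrC the labels name no surface markers. Each of the 8 groups of genotype and fraction therefore held 5 libraries from 5 animals.

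GIMAP proteins (GTPases of the immunity-associated protein family) are small GTP-binding proteins that lymphocytes make in large amounts, and many of them sit on the membranes of organelles by a tail at their end. In mice they are best known for setting how long mature T and B cells live. Loss of Gimap5 empties the T cell compartment and loss of Gimap1 in mature lymphocytes removes peripheral B cells, while Gimap4 has been tied to the pace of T cell death and Gimap6 to autophagy.

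The 8 genes lie side by side on chromosome 6, between positions 48647234 and 48770851 of GRCm38, a stretch of 123.6 kb. In chromosome order they are Gimap8 (ENSMUSG00000064262), Gimap9 (ENSMUSG00000051124), Gimap4 (ENSMUSG00000054435), Gimap6 (ENSMUSG00000047867), Gimap7 (ENSMUSG00000043931), Gimap1 (ENSMUSG00000090019), Gimap5 (ENSMUSG00000043505) and Gimap3 (ENSMUSG00000039264). Gimap6 and Gimap3 are on the minus strand and the other 6 on the plus strand. Because all 8 fitted changes had the same sign in some comparisons, though not in others, the letters upstream of their starts were read from RefSeq (build GRCm38.p6), where all 8 members were found with 9 start sites, 2 of them for Gimap8. Windows of 250 bases before the start were searched on both strands for AGGAAG, letters that many ETS factors bind, and for TGTGGT, the core of RUNX sites. Both families of factors act in lymphocyte development. AGGAAG stood in 7 of the 9 windows, those of 7 members, and in 29.5% of all 32851 windows of that length. TGTGGT stood in 3 of the 9, those of Gimap4, Gimap7 and Gimap1, and in 14% of all windows, and these 3 were also the members with both motifs, which 4.35% of all windows held. Matches did not overlap each other in these windows. The sequences below are the 3 members with both motifs, followed by Gimap3, whose levels differed most between genotypes, and Gimap6, which had the highest level per length in WT FrB and WT FrE and neither motif. They run 5′ to 3′ on the strand of the gene, and capitals mark a match of either motif or its reverse complement.
Gimap4 (chr6:48684328-48684577, plus strand): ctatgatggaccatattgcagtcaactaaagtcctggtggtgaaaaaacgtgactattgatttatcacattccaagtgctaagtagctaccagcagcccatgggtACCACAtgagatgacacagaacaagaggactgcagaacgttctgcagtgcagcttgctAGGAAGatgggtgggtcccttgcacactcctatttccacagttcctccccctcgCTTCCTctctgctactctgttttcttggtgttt
Gimap7 (chr6:48718371-48718620, plus strand): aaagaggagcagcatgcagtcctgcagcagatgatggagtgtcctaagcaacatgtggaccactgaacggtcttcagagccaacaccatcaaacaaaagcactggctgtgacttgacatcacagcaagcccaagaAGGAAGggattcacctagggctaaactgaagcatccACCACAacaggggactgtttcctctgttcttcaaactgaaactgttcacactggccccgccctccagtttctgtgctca
Gimap1 (chr6:48738797-48739046, plus strand): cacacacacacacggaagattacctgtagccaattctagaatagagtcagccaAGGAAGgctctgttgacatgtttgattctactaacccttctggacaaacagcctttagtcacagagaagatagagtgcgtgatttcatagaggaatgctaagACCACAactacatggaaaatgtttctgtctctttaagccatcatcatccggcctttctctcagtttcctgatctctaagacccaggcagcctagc
Gimap3 (chr6:48770852-48771101, minus strand): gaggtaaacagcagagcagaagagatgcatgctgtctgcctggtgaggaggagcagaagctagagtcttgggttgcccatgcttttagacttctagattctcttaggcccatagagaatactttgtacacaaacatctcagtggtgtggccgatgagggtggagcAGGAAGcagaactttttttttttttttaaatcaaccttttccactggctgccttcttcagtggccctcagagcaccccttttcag
Gimap6 (chr6:48708245-48708494, minus strand): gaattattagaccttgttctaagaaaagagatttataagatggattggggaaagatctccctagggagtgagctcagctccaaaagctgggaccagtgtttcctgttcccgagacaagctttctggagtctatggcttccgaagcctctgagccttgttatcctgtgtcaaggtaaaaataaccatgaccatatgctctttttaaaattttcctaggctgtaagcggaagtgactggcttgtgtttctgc
In Gimap4 the RUNX letters began 145 bases before the start, in Gimap7 79 bases and in Gimap1 95 bases before it. A match is a description of the letters, and its absence says only that they are not in the window.

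Total counts of endogenous genes ran from 42111 to 43372070 a library with a median of 16474389, and levels are given as CPM, counts scaled to that total. Genes seen with 1 to 9 counts made up 16.4% to 87.9% of the genes detected in 10 libraries, against 4.98% to 14.7% in the other 30. These low-complexity libraries were mutant FrB of mice 4, 8, 9 and 10, mutant FrC of mice 5, 9 and 10, mutant FrE of mouse 9, WT FrD of mouse 3 and WT FrE of mouse 7, so they were not spread evenly over the groups. The FrE library of mutant mouse 9 held the lowest total, at which 3 counts amount to 71.2 CPM, so its zeros carry almost no information and cannot be placed below any value under that level. The members it did detect, Gimap6, Gimap1 and Gimap9, rest there on 9, 6 and 4 counts. In the other 39 libraries, 3 counts amount to between 0.0692 and 1.74 CPM. Of the 320 values of the family, 19 were 0. Cd79a, a signalling chain of the B cell receptor, was detected in all 40 libraries, with group means of 757.5 to 7115 CPM and 138.6 CPM in the lowest library, of mutant FrC. Erythroid markers were highest in mutant FrC of mouse 9, where they summed to 80460 CPM. Granulocyte and monocyte markers were highest in WT FrD of mouse 3, at 79340 CPM. In a library of sorted cells, fewer cells that carry a transcript and less of it per cell cannot be told apart.

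In WT mice the family was high in the FrB libraries, lower in those of FrC and FrD, and highest in those of FrE. The 8 genes summed to 1072 ± 150.6 CPM in WT FrB (SD, n = 5 here and for every mean below), 513.6 ± 106.3 CPM in FrC, 438.8 ± 188.7 CPM in FrD and 1314 ± 217.2 CPM in FrE. In mutants the sums were 380.8 ± 188 CPM, 265 ± 178.4 CPM, 346.5 ± 103.6 CPM and 669 ± 177.5 CPM in the same order. The WT mean was 2.82 times the mutant mean in FrB, 1.94 times in FrC, 1.27 times in FrD and 1.96 times in FrE. The libraries of the 2 genotypes did not overlap in FrB and in FrE, whereas they overlapped in FrC and FrD. Ordered by mean, the groups ran from WT FrE through WT FrB, mutant FrE, WT FrC, WT FrD, mutant FrB and mutant FrD to mutant FrC. Of the 7 pairs of neighbours in this order, only WT FrB and mutant FrE had libraries that did not overlap. For each single member, all 7 pairs of neighbours overlapped.

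Per length of exon, 3 genes gave most of the family's signal. In WT FrE the mean was 147.6 CPM per kb for Gimap6, 142.8 for Gimap9 and 108.2 for Gimap1, followed by 37.5 for Gimap4, 19.9 for Gimap5, 17.4 for Gimap7, 8.16 for Gimap3 and 4.72 for Gimap8. These levels put Gimap6 at the percentile 96.9 and Gimap8 at the percentile 54.8 of the 14058 genes with a count in that group. In WT FrB Gimap6 was again first, at 115.9 ± 17.8 CPM per kb. Gimap4 at 77.8 ± 36.4, Gimap1 at 75.6 ± 12.9 and Gimap9 at 72.9 ± 7.28 had means too close to be ranked. Gimap4 was spread most, with 237 and 190 CPM in mice 6 and 7 and 83.9 to 109 CPM in the others. Gimap4 thus made up 19.5% of the family's summed CPM per kb in WT FrB and 7.71% in WT FrE, and only 0.633% in mutant FrE. The share of Gimap9 took the opposite course, with 18.3% in WT FrB, 29.4% in WT FrE and 42% in mutant FrE. Its mean level was nevertheless lower in mutant FrE, at 106.1 CPM per kb beside 142.8 in WT FrE. A share of that size was also found in FrD, with 41.57% in WT and 42.35% in mutants.

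**Figure D1:**
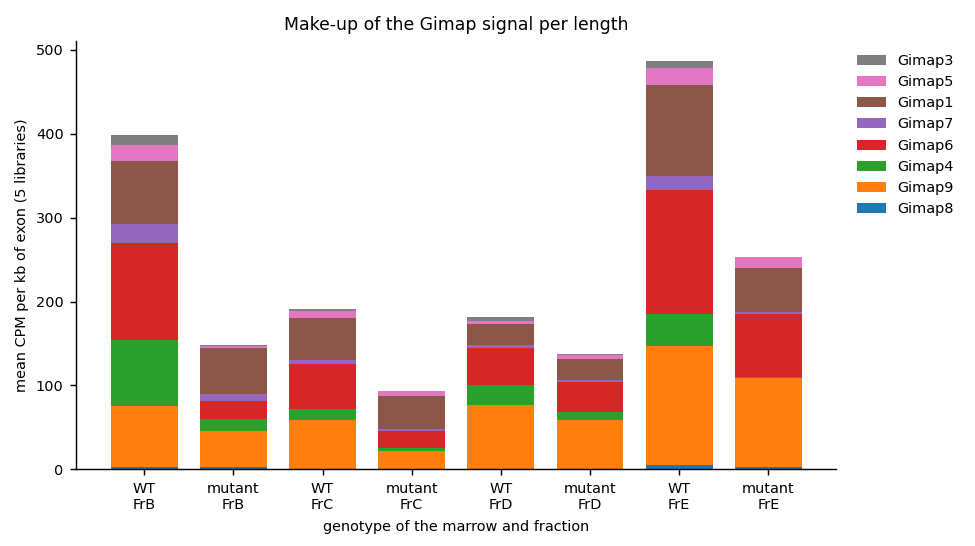
Mean level of each Gimap gene in CPM per kb of exon, stacked from 0, for the 8 groups of genotype and fraction (5 libraries each). The WT FrB and WT FrE bars are the tallest, and the segment of Gimap4 shrinks from 77.8 CPM per kb in WT FrB to 1.6 in mutant FrE.

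The members known for lymphocyte survival are described first. Values are listed by mouse number throughout, 1, 2, 3, 6 and 7 for WT and 4, 5, 8, 9 and 10 for mutants. Gimap1, which peripheral B and T cells need to survive, stood at 272, 204, 240, 427 and 521 CPM in WT FrE. In mutant FrE it stood at 140, 137, 171, 142 and 223 CPM. Only the highest mutant, mouse 10, reached above the lowest WT library, and the WT mean was 2.04 times the mutant mean. In FrB the genotypes overlapped for Gimap1, with WT libraries between 187 and 284 CPM and mutants between 81.5 and 283 CPM. In FrD its means were 76.8 ± 23 CPM in WT and 76.7 ± 36 CPM in mutants, which is the closest match of any member and fraction.

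Gimap5, whose loss in rats and mice leads to a lack of T cells, stood at 54.7, 57.9, 79.5, 117 and 75.4 CPM in WT FrB. The mutant FrB libraries held 36.2, 19.6, 0.402, 0.212 and 0.275 CPM. All mutants were below all WT libraries, and the 3 lowest were low-complexity libraries with hardly any Gimap5 counts. In FrE it overlapped, with 67.3, 78.3, 116, 145 and 5.23 CPM in WT and 85.3, 40.2, 48.1, 0 and 87 CPM in mutants. The 2 lowest of these, WT mouse 7 and mutant mouse 9, were low-complexity libraries.

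Gimap3 is the closest relative of Gimap5, and mouse GIMAP3 has been placed in the outer mitochondrial membrane. It shared 190 windows of 50 bases with Gimap5, 7.52% of its own and 4.53% of those of Gimap5, so some reads could have been counted to either, and no other pair of members shared a window. In WT FrB it was even across mice, at 31.6, 28.3, 32.8, 25.4 and 41 CPM. Mutant FrB libraries held 0, 3.65, 0, 0.212 and 0.0688 CPM, all far below. In WT FrE the values were 35.4, 27.7, 11.3, 30.5 and 0.174 CPM, and in mutant FrE 2.24, 0.0513, 0.193, 0 and 0 CPM. The 4 WT libraries that are not of low complexity were above every mutant other than mouse 9, and the fifth, of mouse 7, was not. The WT mean was 40.4 times the mutant mean in FrB and 42.3 times in FrE, on mutant means of 0.787 and 0.497 CPM.

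Members tied to lymphocyte death come next. Gimap4, which hastens the death of T cells once they have been triggered to die, stood at 83.9, 95.8, 109, 237 and 190 CPM in WT FrB. Mutant FrB held 65.2, 28.9, 5.22, 23.3 and 13.6 CPM, each below the lowest WT library. In WT FrE it stood at 19.3, 97.9, 85, 125 and 17.1 CPM, against 0.255, 4.82, 9.58, 0 and 0.0529 CPM in mutants. The 4 mutants other than mouse 9, at 9.58 CPM or less, were below all WT libraries, while the 0 of mouse 9 cannot be placed. The WT mean of 68.9 ± 48.5 CPM was 23.4 times the mutant mean of 2.94 ± 4.24 CPM, which counts mouse 9 as 0. FrD did not show such a separation, because WT mouse 7 held 0.0843 CPM beside 36.2 to 82.5 CPM in the other WT libraries and 10.1 to 20.6 CPM in mutants.

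Gimap8, the longest family protein, with several GTP-binding domains in a row, was the lowest member per length in every WT group. Its WT FrE libraries held 15.1, 2.79, 22.5, 34.3 and 12.6 CPM and those of mutants 8.15, 22.6, 6.19, 0 and 10.7 CPM, which overlapped. In FrC and FrD its group means were 1.16 to 3.69 CPM, with 4 of these 20 libraries at 0.

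Gimap6, which binds the autophagy protein GABARAPL2, had the highest level per length in WT FrB and WT FrE. WT FrB stood at 383, 376, 357, 397 and 513 CPM and mutant FrB at 71.6, 90.2, 23.3, 10.8 and 168 CPM, and every mutant was below every WT library. WT FrE stood at 563, 560, 552, 560 and 345 CPM, where 4 mice lay between 552 and 563 CPM and the fifth was the low-complexity library of mouse 7. Mutant FrE held 295, 158, 244, 214 and 407 CPM, so that 4 of 5 mutants were below all WT libraries. The WT mean was 5.57 times the mutant mean in FrB and 1.96 times in FrE.

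Gimap7, a GTPase that works as a dimer and can stimulate GTP hydrolysis by other GIMAP proteins, stood at 34.5, 90.7, 27.2, 40.2 and 10.3 CPM in WT FrE. Mutant FrE held 4.89, 0.513, 11, 0 and 0.0529 CPM. Mutant mouse 8 reached just above WT mouse 7, a low-complexity library, and those of mice 4, 5 and 10 were below all WT libraries. In FrB the range was 36.1 to 71.6 CPM in WT and 1.59 to 48.6 CPM in mutants, and in WT FrD 3 of 5 libraries held only 0.157, 0.0494 and 0.0421 CPM. Gimap9 had the second highest level per length in WT FrE. It stood at 354, 271, 311, 190 and 46.9 CPM in WT FrE and at 232, 177, 199, 95 and 168 CPM in mutant FrE, and the genotypes overlapped in all 4 fractions.

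**Figure D2:**
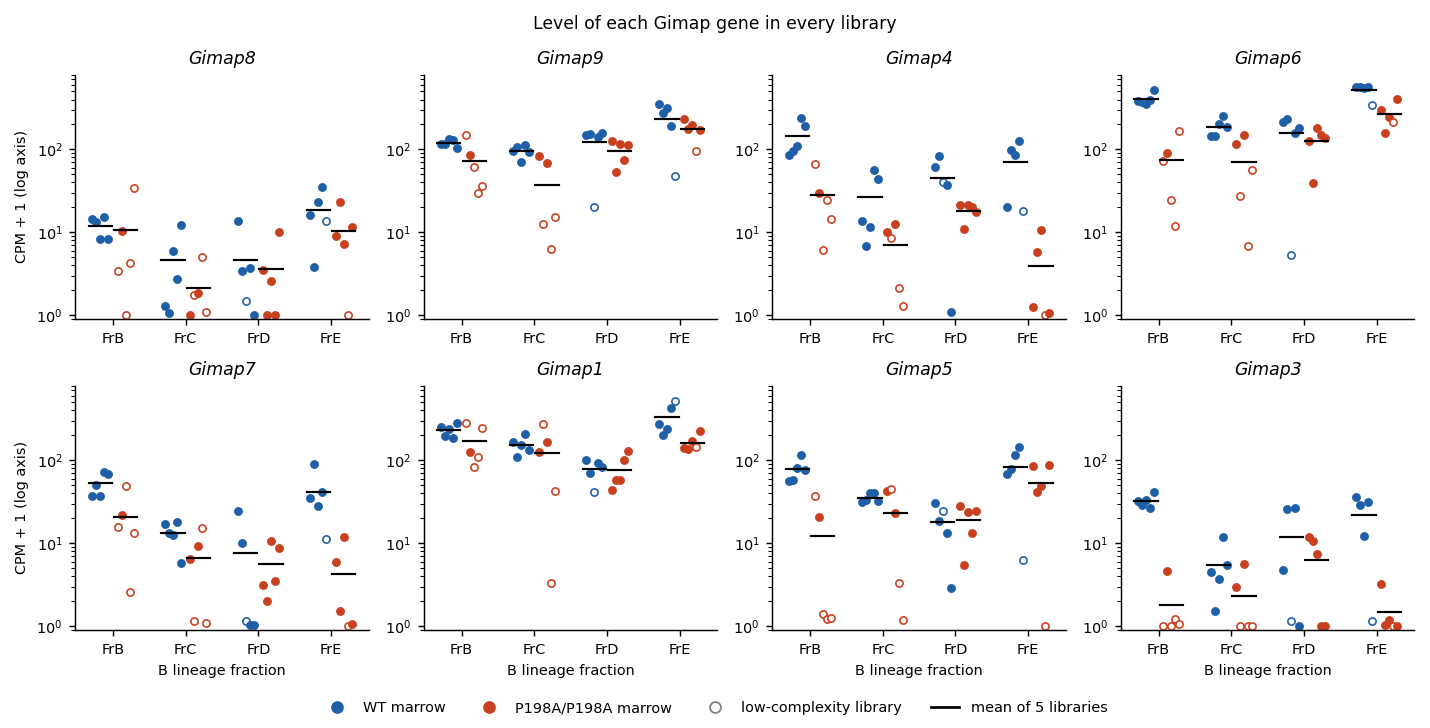
Level of each Gimap gene in every library as CPM + 1 on a log axis, by fraction, with WT in blue and P198A/P198A in red, open symbols for low-complexity libraries and a line at the mean of 5 libraries. Gimap3, Gimap4, Gimap5 and Gimap6 have all mutant FrB libraries below all WT ones, and in FrE the 4 mutant libraries of Gimap4 other than that of mouse 9 lie below all WT ones.

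The comparison of genotypes in FrB asks whether cells sorted as FrB with mutant ZIP7 differ from those of WT. All 8 members had fitted log2 fold changes (mutant over WT) below 0, with a median of -1.54 beside 0.11 over all genes tested. The changes were -5.20 ± 1.32 for Gimap3 (SE here and for every fitted change), -2.64 ± 1.14 for Gimap5, -2.27 ± 0.54 for Gimap6 and -2.20 ± 0.62 for Gimap4. For the other 4 they lay between -0.88 and -0.01, with SEs of 0.37 to 1.12. Over 17 alternative fits the sign turned in 9 for Gimap8, the member closest to 0, and in 1 each for Gimap1 and Gimap9. In edgeR's quasi-likelihood test, 3 members (Gimap3, Gimap4 and Gimap6) had an adjusted p under 0.05, against 7.37% of 10562 genes (596 higher and 182 lower). Libraries did not overlap, with every mutant lower, for 4 members and for 8.27% of the genes. Nothing is read from either count, because the members were chosen on these levels. Of the 5 mutant FrB libraries 4 were of low complexity. Without them a single mutant library was left, of mouse 5, in which the change of Gimap6 was -2.23 ± 0.32 and that of Gimap3 was smaller, at -3.18 ± 0.66, and its spread is then assumed to equal that of WT. The count of members called was 0 when the WT library of mouse 1, 2 or 7 was left out, 1 without that of WT mouse 3 or 6, and 0 when libraries were scaled to the spike-in RNA.

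In FrE the same direction was found at the immature stage. All 8 changes were again below 0, with a median of -1.19 beside -0.10 over all genes, and none of the alternative fits turned the sign of any. They were -5.11 ± 1.72 for Gimap3, -4.34 ± 1.19 for Gimap4, -3.47 ± 1.18 for Gimap7, -1.25 ± 0.36 for Gimap1 and -1.13 ± 0.30 for Gimap6. Gimap8, Gimap5 and Gimap9 had -0.80 ± 0.93, -0.60 ± 0.70 and -0.52 ± 0.44, all within 1 SE of 0 or little more. In edgeR's test 0 members and 0% of 9662 genes had an adjusted p under 0.05, although 512 genes and 5 members had an unadjusted p under 0.05, and DESeq2 called 121 genes and 2 members (Gimap4 and Gimap6). With every mutant lower and no overlap there was 1 member, Gimap4, against 0.507% of the genes, where the zeros of mouse 9 count as measured. Without the 2 low-complexity libraries, of WT mouse 7 and mutant mouse 9, there were 4 (Gimap3, Gimap4, Gimap6 and Gimap7), against 2.73% of the genes.

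**Figure D3:**
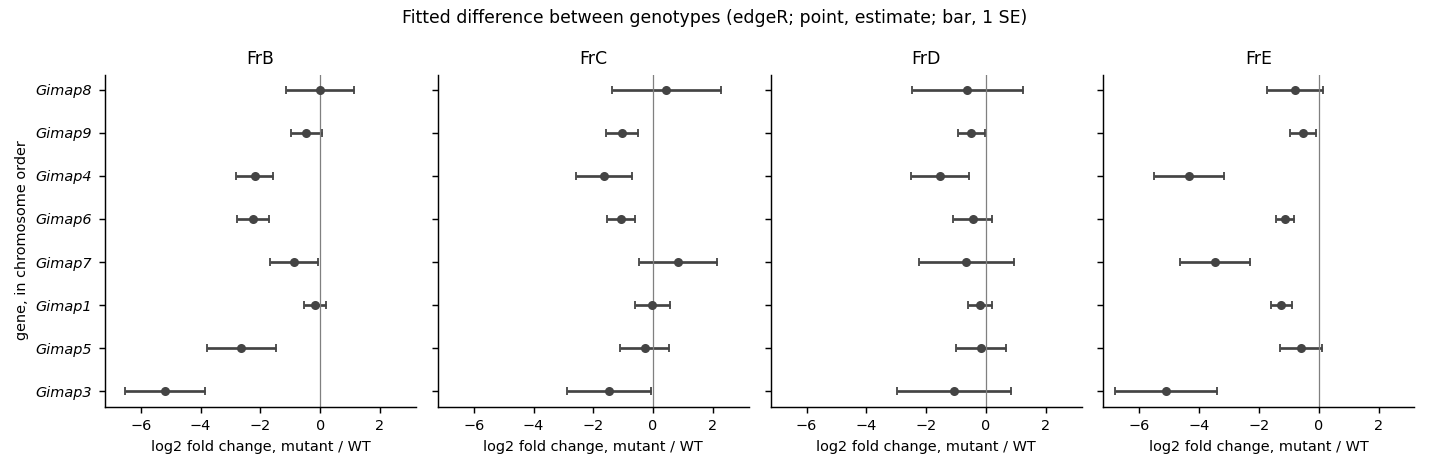
Fitted log2 fold change of P198A/P198A over WT for each Gimap gene in chromosome order, in 1 panel per fraction, with bars of 1 SE and a line at 0. In FrB and FrE all 8 points lie below 0, most far for Gimap3 at -5.20 and -5.11. In FrD most bars cross 0, and in FrC those of Gimap1, Gimap5, Gimap7 and Gimap8 do.

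FrC and FrD showed smaller differences with wide errors. In FrC, 6 members had changes below 0 and 2 above, from -1.65 ± 0.93 for Gimap4 to 0.83 ± 1.31 for Gimap7. In edgeR 0 members and 0% of 10299 genes were called, with 1168 genes and 1 member at an unadjusted p under 0.05, and DESeq2 called 1479 genes and 0 members, giving no adjusted p for Gimap7. No member had every mutant below every WT library, against 2.32% of the genes. In FrD all 8 changes lay between -1.53 ± 0.96 (Gimap4) and -0.16 ± 0.83 (Gimap5), with a median of -0.56. Over 17 alternative fits the sign turned in 5 for Gimap5, in 2 for Gimap7 and in 1 each for Gimap1, Gimap6, Gimap8 and Gimap9. Without the low-complexity library of WT mouse 3 the FrD median was -0.81, and 0 members were called, against 39 of 10371 genes. Gimap9 and Gimap6 then had -0.74 ± 0.29 and -0.74 ± 0.34, and Gimap5 lay above 0, at 0.14 ± 0.84. The counts that follow are of all FrD libraries. In edgeR 0 members were called there, with 0 at an unadjusted p under 0.05 and 0 by DESeq2, against 0.00996% of 10043 genes, and no member was free of overlap with mutants lower, against 0.468% of the genes.

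Steps between consecutive fractions ask how the family changes as B cells mature. From FrB to FrC every WT mean was lower, and all 8 fitted changes were below 0, from -2.92 ± 1.25 for Gimap3 and -2.59 ± 0.89 for Gimap4 to -0.43 ± 0.42 for Gimap9. Over 11 alternative fits the sign turned in 1 each for Gimap1 and Gimap9. Every FrC library was lower than every FrB library for 5 members (Gimap3, Gimap4, Gimap5, Gimap6 and Gimap7), against 3.79% of the genes. In edgeR 0 members were called, 4 had an unadjusted p under 0.05 and DESeq2 called 0, against 0.166% of 11439 genes. Without the low-complexity libraries, or without WT mouse 3, the call was 1, Gimap6. From FrC to FrD, 4 members had changes above 0 and 4 below. Gimap1 and Gimap5 were lower in every FrD library than in every FrC library, 2 members against 9.3% of the genes, with means of 153 and 76.8 CPM for Gimap1 and of 34.6 and 17 CPM for Gimap5. In edgeR 0 members were called, 1 had an unadjusted p under 0.05 and DESeq2 called 0, against 5.23% of the genes.

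From FrD to FrE, when the B cell receptor first reaches the surface, all 8 WT changes were above 0, with a median of 1.92 beside 0.01 over all genes. They were 2.63 ± 1.08 for Gimap7, 2.23 ± 1.25 for Gimap8, 2.13 ± 0.31 for Gimap1, 2.09 ± 0.63 for Gimap5 and 1.75 ± 0.48 for Gimap6. Within mice, FrE was above FrD in 5 of 5 WT animals for 6 members, and in 4 of 5 for Gimap4 and Gimap9. Every FrE library was above every FrD library for Gimap1 (76.8 to 333 CPM in the means) and Gimap6 (156 to 516 CPM), which makes 2 members, against 1.8% of the genes. Without the low-complexity libraries there were 5, against 4.71%. In edgeR 2 members (Gimap1 and Gimap6) were called, against 5.32% of 11439 genes. With the mouse as a replicate block 1 was called, Gimap1, as was the case without WT mouse 1, 2 or 6. DESeq2 and the fit without low-complexity libraries each called 4.

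In mutants the step from FrD to FrE split the family. Gimap1, Gimap6 and Gimap9 had changes of 1.10 ± 0.55, 1.06 ± 0.58 and 0.88 ± 0.56, and were higher in FrE than in FrD in each mutant mouse, that of mouse 9 resting on the few counts given above. In all, 5 of the 8 changes were above 0 and 3 below, the highest at 2.02. Gimap5 and Gimap8 were higher in FrE in the 4 mice other than mouse 9. Their means went from 18.1 to 52.1 CPM and from 2.65 to 9.52 CPM. Gimap4 had a change of -2.30 ± 1.22, and was lower in FrE in the 4 mice other than mouse 9. Without the low-complexity library of mouse 9, every FrE library was below every FrD library for 1 member, Gimap4, against 2.9% of the genes. Every FrE library was above every FrD library for 3 members (Gimap1, Gimap5 and Gimap9), against 2.1%. Gimap3 had a change of -3.08 ± 2.30, with a wide error, and 2 libraries of each fraction were at 0. In edgeR 0 members and 0% of 11197 genes were called, with 0 members and 616 genes at an unadjusted p under 0.05, and DESeq2 called 0 members and 118 genes. The difference between genotypes in this step was fitted directly. All 8 differences were below 0, from -4.05 ± 2.36 for Gimap3, -2.82 ± 1.82 for Gimap7 and -2.79 ± 1.33 for Gimap4 to -0.04 ± 0.68 for Gimap9. Over 16 alternative fits the sign turned in 6 for Gimap8 and in 5 for Gimap9. In edgeR 0 members were called, with 1 at an unadjusted p under 0.05 and 0 by DESeq2, against 0.153% of 12397 genes, so a step that differs between genotypes was not shown for any member. The same FrD and FrE libraries enter these steps and the genotype comparisons, so the values are not independent of each other. The earlier mutant steps gave 0 called members in edgeR and in DESeq2, with 0 at an unadjusted p under 0.05 in each, against 0% of the genes from FrB to FrC (1797 at an unadjusted p under 0.05, 373 called by DESeq2) and 2.97% from FrC to FrD.

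**Figure D4:**
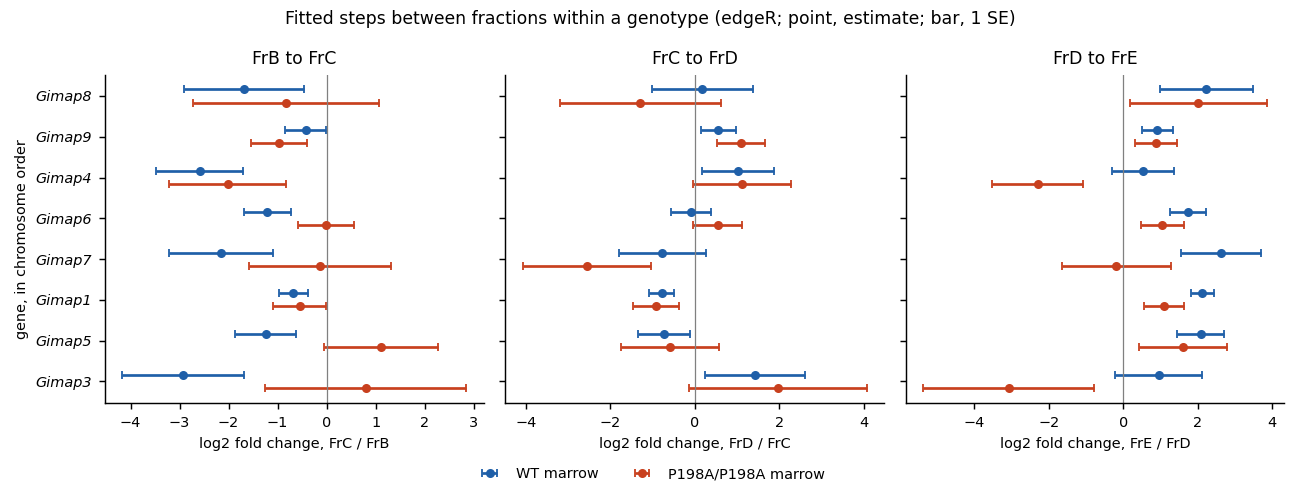
Fitted log2 fold change of each Gimap gene between consecutive fractions, later over earlier, in WT (blue) and P198A/P198A (red), with bars of 1 SE. From FrD to FrE all WT points lie above 0, while the mutant points of Gimap3 (-3.08) and Gimap4 (-2.30) lie below it.

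Markers of B cell maturity were lower in mutants in FrB, where the family was lower too. The 16 of 18 immature and mature B cell markers in the table, such as the class II chaperone Cd74 and the receptor for the survival factor BAFF, Tnfrsf13c, summed to a median of 12280 CPM in WT FrB and 1335 CPM in mutant FrB, without overlap (8142 to 12960 against 970.6 to 3239). In edgeR's test 8 of the 16 fell in mutant FrB and 0 rose, among them Cd74 (log2 fold change -4.23 ± 0.30, adjusted p = 3.49e-06) and Tnfrsf13c (-2.93 ± 0.49, adjusted p = 0.00442). Over all 10562 genes 182 were called lower and 596 higher there. This list and those below were chosen with earlier results of these data known, so their counts and p-values are a description. In FrE the sums were 14370 to 39310 CPM in WT and 10060 to 16500 CPM in mutants, with all 16 changes below 0. There edgeR called 0 of them, with 13 at an unadjusted p under 0.05, 7 called by DESeq2 and 5 by edgeR without the low-complexity libraries. In FrC the sums did not overlap either (2499 to 4697 against 322.1 to 1585), with 0 called by edgeR, 7 at an unadjusted p under 0.05 and 3 by DESeq2. Tnfrsf13c was also the 1 gene of the whole table that edgeR called in FrD (-2.49 ± 0.32, adjusted p = 0.021). In the WT step from FrD to FrE, 8 of the 16 rose and 0 fell, led by the B cell surface protein Ms4a1 (4.13 ± 0.43, adjusted p = 8.8e-06). Over all 11439 genes 330 rose and 278 fell in that step. From FrB to FrC in WT, 15 of the 16 markers were below 0 and 1 above, with a median of -1.67, and 4 fell and 0 rose, beside 19 and 0 of all genes. All 8 Gimap genes were below 0 in that step, with a median of -1.47. The marker sums had medians of 3117 CPM in WT FrC and 4598 CPM in WT FrD, beside 12280 CPM in WT FrB. The WT step from FrC to FrD went otherwise, with 15 of the 16 markers above 0, a median of 1.06 and 5 rising, beside 337 of all genes. There the Gimap genes had 4 above and 4 below 0 and a median of 0.04. The part of cell maturity or of cell make-up in the levels of the Gimap genes was not tested.

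Plasma cell genes moved in the same way in FrB. Their 8 markers summed to 17780 to 52990 CPM in WT FrB and 948.4 to 12860 CPM in mutant FrB, and 2 fell, Xbp1 (-2.61 ± 0.54, adjusted p = 0.0123) and Derl3 (-2.64 ± 0.71, adjusted p = 0.0346), both of which serve protein secretion. In FrE the sums were 1186 to 23610 CPM in WT and 2040 to 2856 CPM in mutants, with 0 called by edgeR, 3 at an unadjusted p under 0.05 and 2 by DESeq2. In WT the sums had medians of 29980 CPM in FrB, 1365 CPM in FrC and 1701 CPM in FrD. From FrB to FrC in WT, 7 of the 8 markers were below 0 and 1 above, with a median of -2.89 and 2 falling. The part of plasma cells in the levels of the Gimap genes was not tested.

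Markers of other cells differed between genotypes in FrB as well. Granulocyte and monocyte markers summed to 306.4 to 12660 CPM in WT FrB and to 2837 to 60720 CPM in mutant FrB, with 15 of 17 changes above 0 and a median of 3.39. Of these 3 rose, the granule protease genes Mmp8 and Mmp9 and the peroxidase gene Mpo. Without the low-complexity libraries the median turned to -1.22, over 18 tested. The single mutant library left, of mouse 5, held the lowest mutant sum, 2837 CPM, which lies within the WT range. In FrE their sums were 104.2 to 6517 CPM in WT and 35 to 74430 CPM in mutants. All 9 tested there were above 0, with 0 called by edgeR, 3 at an unadjusted p under 0.05 and 4 by DESeq2. Stem and progenitor markers summed to 582.7 to 1920 CPM in WT FrB and 22.9 to 167.1 CPM in mutant FrB, without overlap. Of the 6 tested, however, 3 changes were above 0 and 3 below, with a median of -0.23. In edgeR's test 1 of them fell, Ly6a (-3.60 ± 0.65, adjusted p = 0.00684), and 0 rose. Cd79a had means of 3875 CPM in WT FrB and 757.5 CPM in mutant FrB, where the highest mutant library, at 2069 CPM, was below the lowest WT library, at 3440 CPM. It is 1 of 8 B lineage markers, of which 4 changes were above 0 and 4 below, with a median of 0.09. In edgeR's test 1 of the 8 rose and 2 fell, beside 7.37% of all genes called. Ebf1 and Pax5 were higher in mutants, with means of 279.5 and 83.75 CPM in WT FrB and 659.8 and 175.7 CPM in mutant FrB. The part of these cells in the levels of the Gimap genes was not tested.

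T cell markers bear on the source of the transcripts, since T cells are rich in Gimap RNA. Of 19 markers 16 were in the table. Their sums had medians of 261.5 CPM in WT FrB (179.5 to 264.4), 189.9 CPM in mutant FrB (125.7 to 281.7), 102.3 CPM in WT FrE (19.4 to 191.8) and 94.1 CPM in mutant FrE (25.6 to 135.9), and so overlapped between genotypes in both fractions. In the middle fractions the medians were 303.8 CPM in WT FrC (177.1 to 350.6), 327.4 CPM in mutant FrC (262.6 to 1682), 23 CPM in WT FrD (17.1 to 101.5) and 91.8 CPM in mutant FrD (56.5 to 156.8). The highest mean of the defining gene Cd3e in any group was 1.11 CPM, in WT FrB, and it was at 0 in WT FrD and WT FrE. In WT FrE Cd247, Cd8a and Cd6 were at 0 as well, while Cd3g had a mean of 36.8 CPM that came from up to 184 CPM in a single library, and Lck, Cd28, Lat and Cd4 had means of 35.7, 14.1, 11.7 and 4.37 CPM. Lck made up much of the sums, with means of 101 CPM in WT FrB and 73.8 CPM in mutant FrB. In FrB the means of Cd28, Cd3d and Cd3g were 45.5, 8.46 and 7.99 CPM in WT and 12.2, 2.12 and 0.309 CPM in mutants. Between genotypes 13 of the markers were tested in FrB and 2 in FrE. In FrB 10 of the 13 changes were below 0, with a median of -1.16, and edgeR called 0, with 1 at an unadjusted p under 0.05 and 1 called by DESeq2. In FrE edgeR called 0, with 0 at an unadjusted p under 0.05 and 0 by DESeq2. The part of T cells in the levels of the Gimap genes was not tested.

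**Figure D5:**
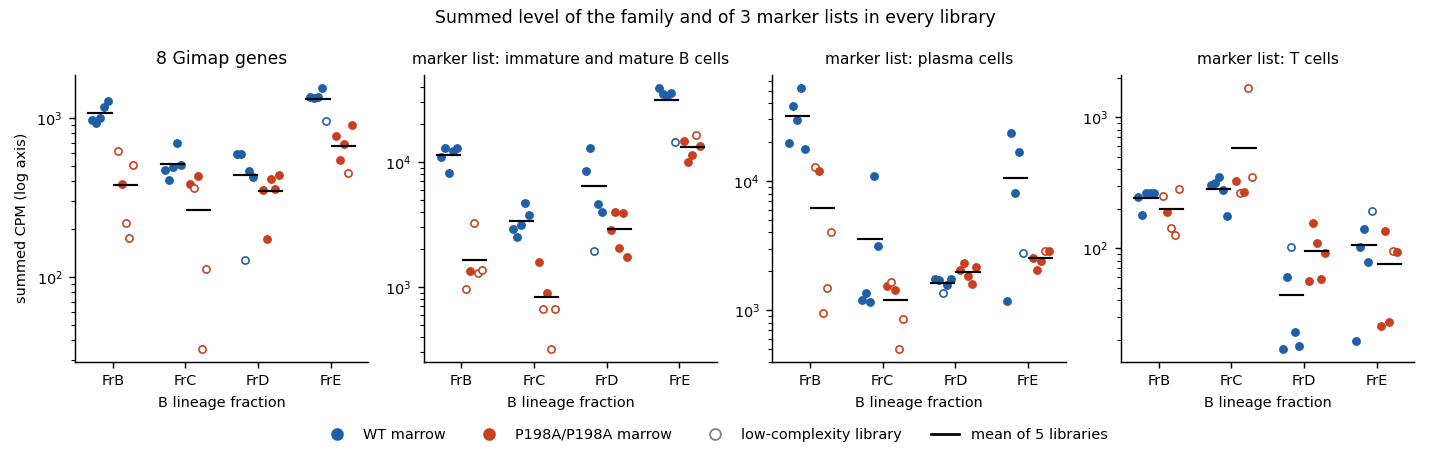
Summed CPM on a log axis of the 8 Gimap genes and of the marker lists of immature and mature B cells, plasma cells and T cells in every library, with WT in blue, P198A/P198A in red, open symbols for low-complexity libraries and a line at the mean. The Gimap sum and the immature and mature B cell sum have no overlap between genotypes in FrB, while the T cell sums overlap in FrB and FrE.

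Other genes of GIMAP biology were counted in the same fits. Of 17 genes reported as binding partners or pathway members of GIMAP proteins (BCL2 family proteins, GSK3 and catenin, GABARAP and LC3 proteins, Nfatc1 and Prkcq), 16 were tested in FrB, with 1 rising, the death effector Bak1 (3.99 ± 0.86, adjusted p = 0.0134), and 1 falling, the autophagy protein Map1lc3b (-1.13 ± 0.29, adjusted p = 0.0302). Their median change was 0.08 in FrB and 0.13 in FrE, beside 0.11 and -0.10 over all genes, and in FrE edgeR called 0, with 3 at an unadjusted p under 0.05 and 0 by DESeq2. Without the low-complexity libraries edgeR called 0 in FrB as well. In the WT step from FrD to FrE 3 rose and 1 fell. The survival factor Bcl2 rose (4.16 ± 1.03, adjusted p = 0.0211), as did Nfatc1 and Mcl1, and its relative Bcl2l1 fell (-3.82 ± 0.53, adjusted p = 0.000144). Of 17 genes of lymphocyte quiescence and trafficking, edgeR called 0 in FrB and in FrE, with 3 and 1 at an unadjusted p under 0.05, 2 and 1 called by DESeq2, and median changes of -0.02 and -0.51. In the WT step from FrC to FrD 15 of the 17 were above 0, with a median of 1.32, and 7 rose, led by the antiproliferative gene Btg1 (2.91 ± 0.22, adjusted p = 6.7e-08).

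A second family of immune GTPases, the interferon-induced GTPases, served as a comparison. Of 16 genes, 14 were tested in FrB, with a median of -1.30, 1 rising (Gbp7) and 1 falling (Gbp8). In FrE 12 were tested, with a median of -0.63 and 0 called by edgeR, 1 at an unadjusted p under 0.05 and 0 by DESeq2. The WT step from FrD to FrE had a median of 0.32, with 0 called by edgeR, 2 at an unadjusted p under 0.05 and 2 by DESeq2, beside a median of 1.92 for the Gimap genes. In the WT step from FrB to FrC all 16 were below 0, with a median of -1.27 beside -1.47 for the Gimap genes, and edgeR called 0, with 5 at an unadjusted p under 0.05 and 1 by DESeq2. No test compared the lists.

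The genes beside the cluster were looked at for a change of the whole region. In the cluster and within 250 kb on either side the table held 17 other genes, of which 8 were tested in FrB and 6 in FrE. In edgeR 0 were called in either, with 0 and 1 at an unadjusted p under 0.05 and 1 and 0 by DESeq2, and the medians were -0.53 and -1.37. The nearest pair past Gimap3, Tmem176b and Tmem176a, had means of 107 and 77 CPM in WT FrE and 34.4 and 7.28 CPM in mutant FrE. Zfp775 and Repin1, the nearest on the other side, had 1.46 and 65 CPM in WT FrE and 8.19 and 27.8 CPM in mutant FrE. A read-through gene within the cluster, Gm28053, shares 3.48%, 6.44% and 3.69% of the exonic bases of Gimap7, Gimap1 and Gimap5, and its group means reached only 1.04 CPM. An antisense gene, Gimap1os, covers 36% of the exonic bases of Gimap1. The libraries do not mark strand, so its reads cannot be told from those of Gimap1.

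Across the 40 libraries the members were correlated with each other to different degrees. Pearson's r of log2(CPM + 1) over the 28 pairs had a median of 0.43, from 0.26 for Gimap1 and Gimap3 to 0.80 for Gimap9 and Gimap6. Gimap4 and Gimap3 (0.70) and Gimap6 and Gimap1 (0.67) came next. Over the 30 libraries that are not of low complexity the lowest was 0.02, for Gimap9 and Gimap4, and the highest 0.78, for Gimap4 and Gimap3. These libraries share fractions, mice and depth, so the values describe the set and have no p-value.

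The 10 genes most like the family's mean level, of 12397, were Bcl2a1d, Pdia4, Gm6169, Xbp1, Herc3, Tgtp2, Gm6768, Ell3, Fas and Stap1, with r from 0.78 to 0.73 over 40 libraries, where the median gene had 0.21. Bcl2a1d, an antiapoptotic relative of Bcl2 with near-identical copies that make its count uncertain, had means of 9.3 CPM in WT FrB and 0.012 CPM in mutant FrB, and 7.84 and 0.0398 CPM in FrE. The death receptor gene Fas had 19.2 and 2.69 CPM in FrB, and 38.1 and 3.52 CPM in FrE. Without the low-complexity libraries only 1 of the 10, Bcl2a1d, was still among the first 10, which Ly6a then led with r of 0.82, and 6 of the 10 were among the first 10 by Spearman's rho.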

How the data were processed

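Per the labels' protocols, poly(A) RNA of 100 sorted cells was lysed together with ERCC spike-ins and made into libraries by Smart-seq2 and Nextera XT. The authors deposited raw counts per gene, and the submitters' processing notes name HISAT2 2.1.0, featureCounts 1.4.6 of Subread, DESeq2 and mm10. The annotation release and any strand setting were unstated there. The table held 22050 rows, of which 92 were spike-ins, left out of totals and tests. Positions came from GENCODE M21, which matched 21728 of 21958 genes. The members and gene lists were chosen with earlier results of these data known. Comparisons used edgeR 4.0.16 in R 4.3.3 (quasi-likelihood F test, two-sided, TMM, filterByExpr with minimum counts of 10 and 15, Benjamini-Hochberg adjustment over all genes tested, threshold 0.05), fitted on 10 libraries for a genotype comparison, 20 for a step and 40 for the difference between genotypes in a step. Alternatives were DESeq2 1.42.0, other scalings, no filter, covariates, a replicate block, and leaving out replicates or low-complexity libraries (over 15% of detected genes with 1 to 9 counts). The scripts were tested on simulated data. A replicate is a mouse, so libraries of 1 mouse are paired across fractions by the labels. The median correlation of same-mouse deviations was between -0.012 and 0.053. No 2 libraries were identical (highest correlation 0.980). Named genes were the members, genes within 250 kb, up to 5 called genes of each list and comparison by lowest p, and the 10 genes most like the family.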

Additional observations from a re-analysis of the deposited data

Results flagged for a closer look

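Each member was checked in each group for a single library far from the others, by a rule set at about 1 in 20 by chance. The members were measured in the same libraries and some values lie near 0, so that rate is no baseline here. In 9 of the 64 groups of 5 libraries a single library stood far from the others. For Gimap8 these were high values of 33.3 CPM in mutant FrB of mouse 10 (next 9.47), 4.06 CPM in mutant FrC of mouse 9 (next 0.866), 12.6 CPM in WT FrD of mouse 1 (next 2.72) and 9.12 CPM in mutant FrD of mouse 10 (next 2.56). The first 2 are low-complexity libraries. Gimap9 was low in WT FrD of mouse 3, at 19.3 CPM beside 138 CPM for the next, and that library is of low complexity. Gimap6 was high in WT FrB of mouse 7, at 513 CPM (next 397), and low in WT FrE of the same mouse, at 345 CPM (next 552), in a low-complexity library. Gimap3 was high in mutant FrB of mouse 5, at 3.65 CPM (next 0.212), the 1 library of that group that is not of low complexity, and in mutant FrE of mouse 4, at 2.24 CPM (next 0.193).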

How the results depend on the processing

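No member called in the reported fits changed sign in an alternative of that fit. In FrB, where 3 members were called, spike-in scaling gave 0, leaving out a replicate gave 0 to 3, and DESeq2 gave 2 with no adjusted p for Gimap3. Gimap4 was not called without the filter, nor with the set of mouse numbers or of second library indices as a covariate. Of 10 fits that each left out a replicate, Gimap4 was called in 3, Gimap3 in 5 and Gimap6 in 7. In FrE, DESeq2 gave 2 members against 0, and leaving out a replicate gave 0. From FrB to FrC in WT, the count was 1 without low-complexity libraries and 0 to 1 without a replicate, against 0. From FrC to FrD, spike-in scaling gave 5 in WT and 2 in mutants, and leaving out low-complexity libraries gave 2 in WT, against 0 in each. That scaling called 6636 of 11439 genes in WT, 6596 of them lower, and 3221 of 11197 in mutants, and moved the median change of all genes from 0.10 to -2.39 and from -0.10 to -2.29. Gimap9 was called in opposite directions, lower with spike-in scaling and higher without low-complexity libraries. From FrD to FrE in WT, where 2 were called, DESeq2 and the fit without low-complexity libraries gave 4, spike-in scaling 1, the replicate block 1 and leaving out a replicate 1 to 2. The replicate block changed the count of members in no other step. Of the 10 genes most like the family, 1 was shared without low-complexity libraries and 6 by Spearman's rho. Over all genes the alternatives called 148 to 2173 in FrB (778 reported), 0 to 1479 in FrC (0), 0 to 286 in FrD (1), 0 to 121 in FrE (0), 0 to 214 from FrB to FrC (19), 188 to 6636 from FrC to FrD (598) and 239 to 1659 from FrD to FrE (608) in WT, 0 to 373, 0 to 3221 and 0 to 118 in the mutant steps (0, 332 and 0), and 0 to 486 for the difference between genotypes (19). Spike-in scaling moved the median change of all genes in FrB from 0.11 to 0.59. The cause was not tested. Low totals limit the lowest members most, above all in mutant FrE of mouse 9.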
